A study of Homo sapiens with 42 samples.

Results

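The EGR and NR4A immediate early genes were followed here in 7 cell lines of human acute lymphoblastic leukaemia (ALL): EGR1, EGR2, EGR3, EGR4, NR4A1, NR4A2 and NR4A3, with IER2 and IER3 beside them. The 9 genes were taken by their symbols, as 9 of the 50648 gene names shared by the 7 deposited count tables. Each line was given L-asparaginase at 1 IU/ml for 4 h or was left untreated, with 3 libraries per group from what the labels call independent experiments, 42 libraries in 14 groups. L-asparaginase is an enzyme drug for ALL that removes asparagine, and to a lesser degree glutamine, from the medium. The treated and the untreated groups of a line shared the same culture, RPMI-1640 medium with serum and added glutamine, and carried no genetic change made for the study. Nalm6, SUPB15, RS411, REH and 697 are known as B-precursor lines, and CEM and DND41 as T-lineage lines, and each group comes from 1 established line. Of 6 B-lineage markers, 5 or 6 reached 1 CPM, the count scaled to a fixed library total, in the B-precursor lines. All 6 T-lineage markers reached it in CEM and DND41 and none did in the other lines, although 3 B-lineage markers also did in the T-lineage lines.

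Immediate early genes are transcribed within minutes of a stimulus without new protein synthesis. Growth factor and antigen receptor signals reach them through the ERK kinases, which act on SRF and its ternary complex partners, and through calcium and cyclic AMP signals acting on CREB and MEF2 factors. The EGR proteins are zinc finger factors that bind GC-rich sites and are restrained by the corepressors NAB1 and NAB2. The NR4A proteins are orphan nuclear receptors, and NR4A1 transcripts are widely used in lymphocytes as a reporter of antigen receptor signalling. IER2 encodes a nuclear protein of the serum response, and IER3 encodes a protein linked to cell survival.

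Promoter windows of 300 bases, from 250 before to 50 after a gene start, were read from the RefSeq table for GRCh38.p14, whereas the counts were made on hg19. The table matched 6 of the 9 genes with 9 windows (EGR1, EGR2, EGR4, NR4A1, NR4A3 and IER2). The CArG box, the site of SRF, was found on either strand in 1.29% of all 35116 windows, and in 2 of the 9. The cyclic AMP response element half-site TGACG was in 24.6% of all windows and in 5 of the 9, of EGR1, EGR2, EGR4, NR4A3 and IER2. The full element TGACGTCA, the EGR site GCGTGGGCG and the NR4A site AAAGGTCA were in 1.85%, 0.795% and 1.22% of all windows, and in none of the 9. The windows of EGR1 (chr5:138465229-138465528, plus strand), EGR2 (chr10:62816317-62816616, minus strand, the one of its 3 with a CArG box) and NR4A3 (chr9:99821635-99821934, plus strand) are shown because these genes had some of the widest responses below and differ in the 2 motifs. Capitals mark the CArG boxes and each TGACG, which reads CGTCA where it lies on the other strand; no match overlapped another.
EGR1: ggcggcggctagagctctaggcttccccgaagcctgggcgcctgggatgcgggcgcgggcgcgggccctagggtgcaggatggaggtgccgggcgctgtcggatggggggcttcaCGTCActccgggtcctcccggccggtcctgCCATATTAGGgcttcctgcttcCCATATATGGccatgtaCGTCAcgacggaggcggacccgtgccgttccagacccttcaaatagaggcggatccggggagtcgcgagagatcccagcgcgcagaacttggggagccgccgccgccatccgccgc
EGR2: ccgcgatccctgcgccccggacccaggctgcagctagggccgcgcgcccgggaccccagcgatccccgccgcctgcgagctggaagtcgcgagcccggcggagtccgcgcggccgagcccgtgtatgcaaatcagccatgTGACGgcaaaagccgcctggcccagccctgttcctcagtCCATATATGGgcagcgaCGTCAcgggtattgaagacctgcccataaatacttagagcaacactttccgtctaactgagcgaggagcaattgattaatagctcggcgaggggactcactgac
NR4A3: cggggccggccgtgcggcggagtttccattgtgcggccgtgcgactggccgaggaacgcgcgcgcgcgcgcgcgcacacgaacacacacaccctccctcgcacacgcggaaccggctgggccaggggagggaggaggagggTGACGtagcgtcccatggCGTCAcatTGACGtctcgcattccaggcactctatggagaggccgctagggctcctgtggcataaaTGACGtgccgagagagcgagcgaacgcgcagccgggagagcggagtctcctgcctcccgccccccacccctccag
EGR1 carried 2 CArG boxes, starting 105 and 83 bases before the gene start, and EGR2 carried 1, starting 71 bases before it. NR4A3 carried no CArG box and 4 TGACG matches. A match describes these letters only and is not evidence that a factor binds.

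The libraries held 15.1 to 77.1 M counts, with a median of 40.3 M, so 3 counts, the limit that a count of 0 allows, corresponded to 0.0409 to 0.198 CPM. Levels below are CPM scaled by TMM factors over all 42 libraries, given as mean ± SD with n = 3 and compared only within a gene, since no gene lengths were used. Some libraries stood apart. In 5 lines (697, DND41, Nalm6, RS411 and SUPB15), the first of the untreated libraries stood out: 6 small noncoding RNAs took 3.35% to 7.23% of the counts, against 5.77% to 17.8% in the other 37 libraries. In 3 L-asparaginase libraries, SUPB15 C, REH A and RS411 B, 99, 19 and 3 genes reached 1 CPM that had at most 3 counts in the other 5 libraries of the line. Values without these libraries are given beside the results they change.

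L-asparaginase lowered most of these genes in Nalm6 and REH and 4 of them in CEM, while 1 each was called lower in RS411 and DND41, and no member passed the test for an increase in the main comparison of any line. Genes were called at an adjusted p under 0.05 in edgeR's quasi-likelihood test, adjusted over all genes tested in the line. Of 47 tests of a member in a line, 20 were called lower and 0 higher. This main test did not pair libraries. With libraries of the same letter kept as blocks, EGR1 and NR4A1 were called higher in SUPB15, and EGR1 and IER2 in DND41. Below, an experiment kept as a block means the libraries of the same letter, a pairing that the labels do not state. In Nalm6, 8 of 9 members were called lower, where 11.8% of all tested genes were. In REH, 6 of 8 tested members were called lower, against a background of 13.3%. In CEM it was 4 of 6, against 17.7%. In RS411 it was 1 of 5 (IER2), against 5.19%, and in DND41 1 of 6 (NR4A1), against 11.8%; with 1 call each, these counts are read no further than the named gene. None of 6 tested members in SUPB15 and none of 7 in 697 was called lower, where 13.2% and 0.849% of all genes were. Genes called higher made up 8.96% of those tested in Nalm6, 13.2% in REH, 19% in CEM, 7.58% in RS411, 15.1% in DND41, 12.9% in SUPB15 and 1.55% in 697. The remaining 16 of the 63 combinations of member and line had too few counts for the filter, and their values come from the model of all 42 libraries or from counts. In bulk RNA, fewer cells that express a gene and less RNA per cell cannot be told apart.

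**Figure D1:**
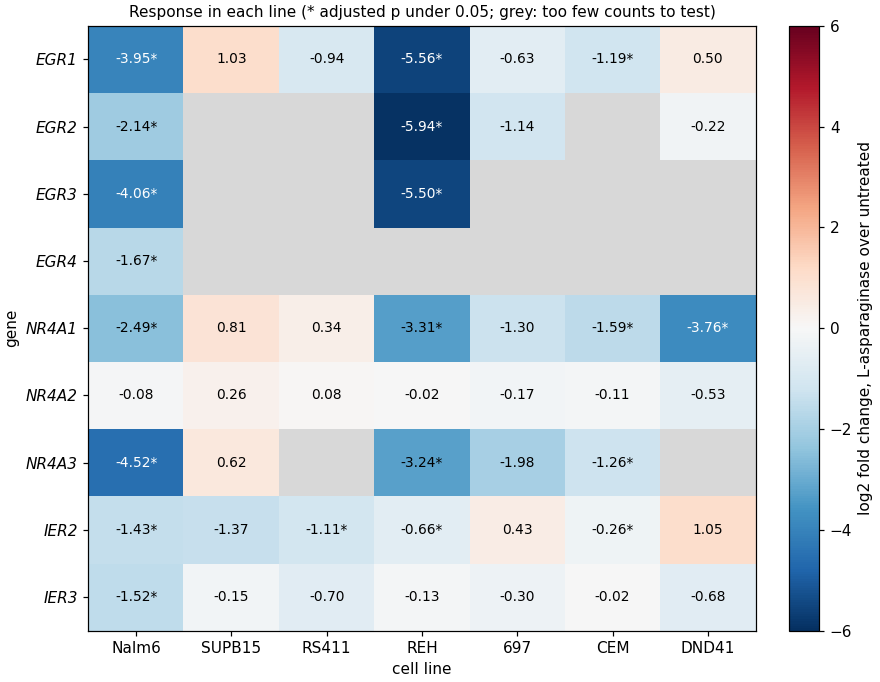
Log2 fold change of each gene (rows) in each line (columns), L-asparaginase over untreated, from edgeR fits of the 6 libraries of a line; asterisks mark adjusted p under 0.05 and grey cells had too few counts to test. The Nalm6 and REH columns hold most of the called decreases, from -0.66 for IER2 in REH to -5.94 for EGR2 in REH, while the NR4A2 row stays between -0.53 and 0.26.

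EGR1, the factor most often read out as a sign of ERK signalling, fell to near 0 in REH. Its level was 0.791, 0.341 and 0.16 CPM in the L-asparaginase libraries of REH, against 14, 13.7 and 23.9 CPM in the untreated ones. The groups were far apart, a log2 fold change of -5.56 ± 0.39 (SE), 47.2-fold lower, with an adjusted p of 2.17e-05. In Nalm6 it was 0.562, 0.347 and 0.607 CPM with L-asparaginase, against 4.07, 6.72 and 13.3 CPM untreated. Every treated value lay below every untreated one there too, although the untreated libraries themselves ranged 3.28-fold, and EGR1 fell 15.5-fold (log2 fold change -3.95 ± 0.44, adjusted p = 0.000448).

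In the other 5 lines the change in EGR1 was smaller and, except in CEM, not called. CEM had 0.879, 1.41 and 0.785 CPM of EGR1 with L-asparaginase and 1.34, 2.72 and 3.03 CPM untreated. The highest treated and lowest untreated values crossed, and the log2 fold change of -1.19 ± 0.31 was called (adjusted p = 0.00970), but not when treated library C was left out (adjusted p = 0.0505) or with the spread shared over all libraries (0.117; 0.0467 in that model without the 5 first untreated libraries). DND41, the line with the highest untreated EGR1, had 36.6, 68.6 and 51.4 CPM with L-asparaginase and 13.9, 29.9 and 70.1 CPM untreated. The treated values lay inside the untreated range, and the log2 difference of 0.50 ± 0.45 did not pass (adjusted p = 0.45). It passed with the experiments kept as blocks (0.74, adjusted p = 0.0450) and without untreated library C (1.27, adjusted p = 0.0381). SUPB15 had 1.88, 1.93 and 2.54 CPM with L-asparaginase, above its untreated values of 0.816, 0.51 and 1.68 CPM. This log2 difference of 1.03 ± 0.40 missed the threshold (adjusted p = 0.0890) and passed with the block (1.17, adjusted p = 0.0373) and without untreated library C (1.65, adjusted p = 0.0171). In DND41 and SUPB15, library C was the untreated one highest in EGR1. Its removal widens the difference, so those calls are no separate support for a rise. RS411 averaged 0.642 ± 0.132 CPM of EGR1 with L-asparaginase and 1.26 ± 0.317 CPM untreated, without overlap, and 697 averaged 5.43 ± 2.01 and 8.38 ± 3.22 CPM with overlap. Neither log2 difference, -0.94 ± 0.32 in RS411 and -0.63 ± 0.42 in 697, passed the test (adjusted p of 0.0931 and 0.429).

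EGR2 and EGR3, relatives of EGR1 that limit lymphocyte activation, fell with it in REH and Nalm6. In REH, EGR2 was 0.066, 0.0898 and 0.0535 CPM with L-asparaginase, which is 1, 5 and 2 counts, against 3.1, 4.43 and 6.88 CPM untreated. This 61.5-fold decrease (log2 fold change -5.94 ± 0.45, adjusted p = 2.62e-05) was larger than that of any other member in any line where it was tested. EGR3 in REH was 0.264, 0.126 and 0.16 CPM with L-asparaginase, against 8.32, 4.98 and 9.46 CPM untreated, 45.4-fold lower (-5.50 ± 0.38, adjusted p = 1.64e-05). Neither gene's groups overlapped in REH. In Nalm6, EGR3 was 0.112, 0.0289 and 0.0933 CPM with L-asparaginase, or 3, 1 and 4 counts, and 0.781, 1.02 and 2.21 CPM untreated. The decrease was 16.7-fold (-4.06 ± 0.57, adjusted p = 0.00132). EGR2 fell less there, to 0.266 ± 0.169 CPM with L-asparaginase, against 1.14 ± 0.567 CPM untreated (-2.14 ± 0.50, adjusted p = 0.0131), and the call was lost without treated library B or C (adjusted p of 0.0564 and 0.0584).

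Where EGR2 was abundant outside REH and Nalm6, its groups overlapped. It averaged 2.29 ± 0.59 CPM with L-asparaginase and 5.04 ± 2.98 CPM untreated in 697 (log2 difference -1.14 ± 0.50, adjusted p = 0.259), and 3.03 ± 0.594 and 3.62 ± 2.3 CPM in DND41 (-0.22 ± 0.42, adjusted p = 0.730). EGR3 in DND41 had 3, 10 and 2 counts with L-asparaginase and 7, 33 and 73 untreated, too few for the filter of that line. In the model of all 42 libraries the same gene fell 6.50-fold in DND41 (-2.70 ± 0.71, adjusted p = 0.00502), although treated library B lay above untreated library A. EGR3 in 697 had 1, 2 and 11 counts with L-asparaginase and 11, 19 and 12 untreated (-1.99 ± 0.77 in that model, adjusted p = 0.0692). In SUPB15, RS411 and CEM, EGR2 and EGR3 had at most 0.586 CPM in any library, and neither was called in any of the 3 lines.

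EGR4, the family member best known from neurons, had any count in 3 lines and more than a few only in Nalm6. In Nalm6 it had 2, 4 and 7 counts with L-asparaginase, against 9, 24 and 33 untreated, a log2 fold change of -1.67 ± 0.46 (adjusted p = 0.0273). The groups did not overlap in CPM, but the call did not hold without any 1 of the 3 treated libraries (adjusted p of 0.0680 to 0.108) or with the spread shared over all 42 libraries (0.126), and EGR4 missed the count filter without untreated library B or C. In SUPB15, 3 counts were found, all in treated library C, where 99 genes were near absent in the line's other libraries. CEM had 2 counts, both untreated. RS411, REH, 697 and DND41 had no count of EGR4 in any library, which allows up to 0.198 CPM in the shallowest one. EGR4 is therefore left out of the tests over all lines, which cover 8 members.

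NR4A1 (also known as NUR77) was lowered in 4 lines. Nalm6 had 18.5, 16 and 15.8 CPM with L-asparaginase, against 75.4, 113 and 102 CPM untreated. REH had 6, 4.74 and 4.01 CPM with L-asparaginase and 46.4, 41.6 and 59.2 CPM untreated. Both lines separated cleanly, with log2 fold changes of -2.49 ± 0.15 in Nalm6 and -3.31 ± 0.18 in REH, decreases of 5.63-fold and 9.95-fold (adjusted p of 1.36e-05 and 4.41e-06). CEM had 2.87, 3.33 and 2.66 CPM with L-asparaginase, against 9.25, 11.2 and 6.44 CPM untreated (-1.59 ± 0.19, adjusted p = 8.54e-05). DND41 had 0.134, 0.363 and 0.386 CPM with L-asparaginase and 0.835, 3.38 and 8.07 CPM untreated, 13.6-fold lower (-3.76 ± 0.75, adjusted p = 0.00620). In both T-lineage lines the lowest untreated library was above the highest treated one, also in DND41, where untreated NR4A1 ranged 9.66-fold.

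In SUPB15 and RS411 NR4A1 lay on the other side. SUPB15 had 3.56, 4.37 and 5.47 CPM with L-asparaginase and 1.46, 3.06 and 3.02 CPM untreated, and RS411 had 5.89, 6.39 and 5.71 CPM with L-asparaginase and 5.27, 5.04 and 3.99 CPM untreated. The treated libraries were the higher ones in both lines without overlap, but the log2 differences of 0.81 ± 0.30 and 0.34 ± 0.18 did not pass (adjusted p of 0.0753 and 0.254). With the experiments as blocks, the difference in SUPB15 was called (0.84, adjusted p = 0.0335), as it was without untreated library A (0.59, adjusted p = 0.0402). Library A was the untreated one lowest in NR4A1, so its removal narrows the spread and is no separate support for a rise. In 697, treated NR4A1 was 4.81, 5.15 and 4.6 CPM, against untreated values of 2.48, 25.8 and 7.85 CPM. The untreated libraries of 697 were 10.4-fold apart and the log2 difference of -1.30 ± 0.71 did not pass (adjusted p = 0.354); without untreated library 1, the one lowest in NR4A1 and in small noncoding RNA, it was -1.76 with an adjusted p of 0.00220.

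NR4A3 (NOR1) had in Nalm6 its highest untreated level and a decrease as clear as that of NR4A1. It was 0.787, 0.549 and 0.7 CPM with L-asparaginase, against 18, 17.4 and 11.9 CPM untreated, 22.9-fold lower (-4.52 ± 0.25, adjusted p = 8.14e-06). REH had 0.33, 0.162 and 0.214 CPM with L-asparaginase and 2.22, 1.41 and 2.6 CPM untreated (-3.24 ± 0.40, adjusted p = 0.000396). CEM had 1.63, 2.51 and 1.34 CPM with L-asparaginase and 5.51, 5.75 and 2.02 CPM untreated. The CEM groups crossed at untreated library C, and the log2 fold change of -1.26 ± 0.34 (adjusted p = 0.0130) was not called without treated library A or C or untreated library B (adjusted p of 0.0602 to 0.0770) or with the shared spread (0.0504; 0.00502 in that model without the 5 first untreated libraries). In 697 the treated values of 0.228, 0.184 and 0.167 CPM were all below the untreated 0.675, 1.26 and 0.389 CPM. That log2 difference of -1.98 ± 0.52 missed the threshold (adjusted p = 0.0957) and passed without untreated library 1 (-2.00, adjusted p = 0.0162) and with the spread shared over all libraries (-1.95, adjusted p = 0.0172). DND41 had 0, 0 and 1 counts of NR4A3 with L-asparaginase and 9, 8 and 16 counts untreated. Scaled for depth, the untreated level there was 29.1 times the treated one, with an exact 95% counting interval of 4.86 to 1182, and the model of all libraries called it lower (-4.42 ± 1.14, adjusted p = 0.00440). NR4A3 in SUPB15 averaged 0.554 ± 0.214 CPM with L-asparaginase and 0.367 ± 0.086 CPM untreated, with overlap (adjusted p = 0.272). RS411 had 5, 2 and 2 counts of NR4A3 with L-asparaginase and 26, 5 and 6 untreated, too few for its filter. The model of all libraries gave -2.05 ± 0.76 there (adjusted p = 0.0774). Without the 5 first untreated libraries, which include the one with 26 counts, it gave -0.44 (adjusted p = 0.824).

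NR4A2 (NURR1), the remaining receptor of the family, was not called in the fit of any line. Its level lay between 0.166 and 2.86 CPM over all 42 libraries, and its groups overlapped in every line. In Nalm6, where NR4A1 and NR4A3 fell, it was 0.974, 0.809 and 1 CPM with L-asparaginase and 1.23, 0.922 and 0.878 CPM untreated, a log2 difference of -0.08 ± 0.28. In REH the difference was -0.02 ± 0.54. Across the 7 lines the differences ran from -0.53 ± 0.41 in DND41 to 0.26 ± 0.31 in SUPB15. In DND41, the model of all libraries gave -0.56 ± 0.35 (adjusted p = 0.313), and -0.87 with a call (adjusted p = 0.0496) without the 5 first untreated libraries.

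**Figure D2:**
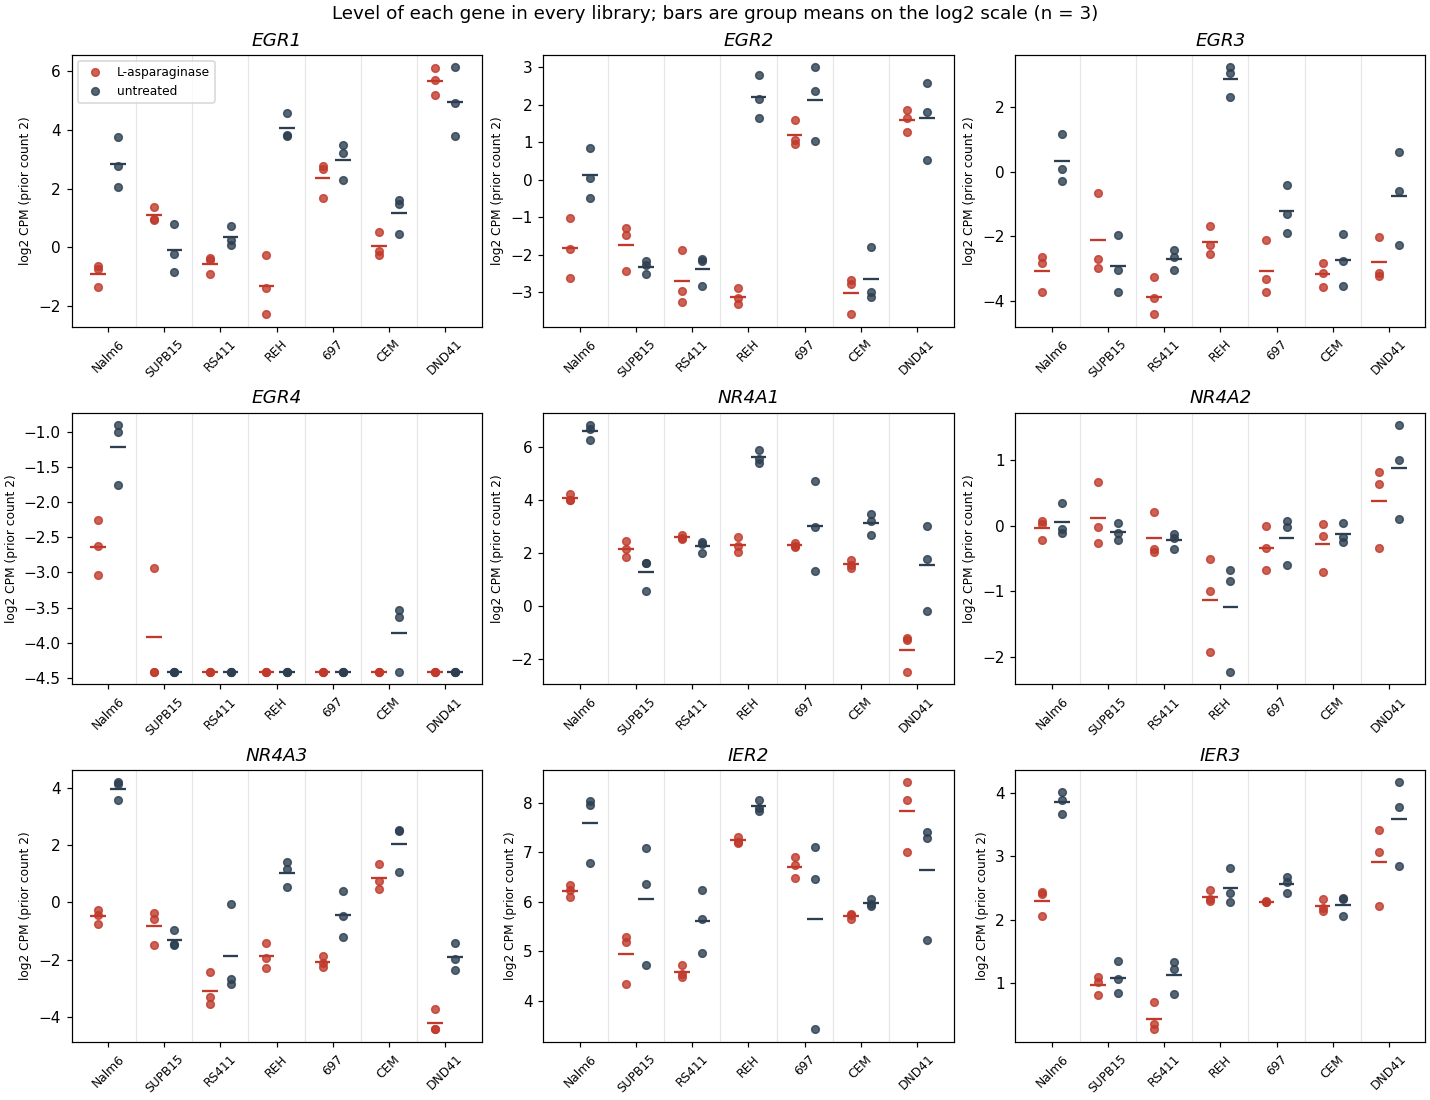
Level of each gene as log2 CPM with a prior count of 2 (vertical axis) in every library of the 7 lines (horizontal axis), L-asparaginase in red to the left of untreated in dark blue, with bars at the mean of 3 libraries. EGR1, EGR2, EGR3, NR4A1 and NR4A3 separate widely in REH and Nalm6, NR4A2 does not separate in any line, and the untreated points of 697 and DND41 are far apart for several genes.

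IER2 was called lower in 4 lines, and several of these calls depended on single libraries or on how the spread was estimated. REH had 148, 146 and 158 CPM with L-asparaginase, against 228, 238 and 266 CPM untreated, a small decrease without overlap (log2 fold change -0.66 ± 0.10, adjusted p = 0.00102). Nalm6 had 67.8, 75.3 and 80.4 CPM with L-asparaginase and 109, 261 and 249 CPM untreated (-1.43 ± 0.25, adjusted p = 0.00355). RS411 had 22.3, 26.3 and 23.3 CPM with L-asparaginase and 31.2, 75.7 and 49.8 CPM untreated (-1.11 ± 0.26, adjusted p = 0.0297). The groups did not overlap in these 3 lines, yet the RS411 call was lost without untreated library B or C or any 1 treated library (adjusted p of 0.0599 to 0.131), while it held without untreated library A. In CEM, 54.1, 53.3 and 50 CPM with L-asparaginase stood against 62.1, 66.7 and 60.5 CPM untreated (-0.26 ± 0.08, adjusted p = 0.0230), a call lost without treated library B or C or untreated library B (adjusted p of 0.0595 to 0.117). With the spread shared over all 42 libraries, IER2 was called in none of these 4 lines (adjusted p of 0.0690 in Nalm6, 0.184 in RS411, 0.451 in REH and 0.860 in CEM). In that model without the 5 first untreated libraries, it was called lower in Nalm6 (-1.77), SUPB15 (-1.76), RS411 (-1.36) and REH (-0.67), with adjusted p of 2.45e-06, 1.62e-06, 0.000143 and 0.0246. Each library left out was the lowest in IER2 of its line's untreated ones. Removing them raises the untreated level of those lines and narrows the spread, so these calls are no separate support for a decrease.

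In DND41 IER2 had 128, 339 and 267 CPM with L-asparaginase and 37.3, 156 and 169 CPM untreated. Within each of the 3 experiments the treated library was the higher one, but treated library A lay below untreated B and C, and the log2 difference of 1.05 ± 0.49 was not called (adjusted p = 0.137). With the experiments as blocks it was called higher (1.21, adjusted p = 0.000273). SUPB15 went the other way within each experiment, at 20, 36.3 and 39 CPM with L-asparaginase and 26.2, 81.5 and 136 CPM untreated. Here too the plain test did not call the difference (-1.37 ± 0.49, adjusted p = 0.0689) and the blocked one did (-1.15, adjusted p = 0.0235), as did the plain test without untreated library A (-1.74, adjusted p = 0.00121). In 697 the treated libraries had 88.4, 119 and 107 CPM and the untreated ones 10.6, 137 and 87.3 CPM. The sign there rested on untreated library 1: the log2 difference was 0.43 ± 0.71 with it and -0.08 without it. The first untreated library had the lowest untreated IER2 in the 5 lines named above for their small noncoding RNA. In REH and CEM that library was also the lowest in small noncoding RNA among the untreated ones, at 9.48% and 9.84%, and it was the lowest in IER2 in REH but not in CEM.

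IER3 varied less, between 1.16 and 17.9 CPM over all libraries. It fell in Nalm6, with 5.28, 4.13 and 5.37 CPM with L-asparaginase, against 14.7, 16.1 and 12.7 CPM untreated (-1.52 ± 0.17, adjusted p = 0.000449), and the groups were well apart. In the other lines the log2 differences ran from -0.70 ± 0.26 in RS411 to -0.02 ± 0.14 in CEM, none called. In RS411, treated IER3 of 1.59, 1.16 and 1.23 CPM lay below untreated values of 2.28, 2.48 and 1.74 CPM without overlap (adjusted p = 0.120), and in 697 4.81, 4.81 and 4.88 CPM lay below 6.37, 5.31 and 5.98 CPM (-0.30 ± 0.22, adjusted p = 0.475). In DND41 it averaged 7.88 ± 3.02 CPM with L-asparaginase and 12.9 ± 5.43 CPM untreated. The difference of -0.68 ± 0.35 was not called in the plain fit (adjusted p = 0.174). It was called with the block (-0.67, adjusted p = 0.00910) and without untreated library A (-0.96, adjusted p = 0.0296). Library A was the untreated one lowest in IER3, so its removal is no separate support for a decrease. The model of all 42 libraries also called IER3 lower in DND41 (-0.71 ± 0.24, adjusted p = 0.0286).

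Keeping the experiments as blocks changed the number of members called in SUPB15, to 3 from 0 (EGR1 and NR4A1 higher, IER2 lower), and in DND41, to 4 from 1 (EGR1 and IER2 higher, NR4A1 and IER3 lower). Without blocks, leaving out a single library gave 0 to 2 called members in SUPB15 and in 697, where all libraries gave 0, and 1 to 3 in DND41, where all gave 1. In REH the count stayed at 6 in each of the 6 such fits.

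Averaged over the 7 lines in the model of all 42 libraries, 7 of the 8 members were called lower, where 19.6% of 20983 genes were. The mean log2 fold change was -2.41 ± 0.25 for NR4A3, -2.27 ± 0.33 for EGR3, -1.63 ± 0.19 for NR4A1, -1.54 ± 0.19 for EGR1 and -1.39 ± 0.25 for EGR2, each with an adjusted p of 2.01e-05 or smaller. The average of EGR2 leaned on REH: without that line it was -0.62 and no longer called (adjusted p = 0.0686). The mean of IER3 was nearer to 0, at -0.51 ± 0.09 (adjusted p = 2.72e-05). Its fitted log2 fold change was below 0 in 7 of 7 lines, but within its SE of 0 in CEM (-0.03 ± 0.24), SUPB15 (-0.13 ± 0.26) and REH (-0.17 ± 0.24). IER2, at -0.50 ± 0.20 (adjusted p = 0.0441), was not called under the block (-0.34, adjusted p = 0.0777) or without the 3 L-asparaginase libraries that stood apart (-0.53, adjusted p = 0.0568), and was called in 14 of the 42 fits that each left out 1 library. NR4A2 was the member not called (-0.10 ± 0.15, adjusted p = 0.763).

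The response was not of 1 size in every line. The size of the response differed between lines for 6 of the 8 members, against 19.4% of all genes, by the test of all 6 line-by-treatment terms. These were EGR1 (adjusted p = 3.14e-07), EGR2 (2.41e-05), NR4A1 (4.02e-05), NR4A3 (7.69e-05), EGR3 (0.000519) and IER3 (0.00998). NR4A2 did not differ detectably (0.903). IER2 was not called (0.0608) with all libraries and was called without the 5 first untreated libraries (4.90e-06), where 7106 of all genes were called in place of 4079, and with the block (0.00569). Those 5 libraries were each the lowest untreated one of their line in IER2, so the call without them depends on that choice.

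REH responded more strongly than the other 6 lines for 4 members, where 2.25% of genes differed in either direction. Its log2 response minus the mean of the others was -5.37 ± 0.71 for EGR2, -4.70 ± 0.63 for EGR1, -3.78 ± 0.82 for EGR3 and -1.99 ± 0.53 for NR4A1 (adjusted p of 1.23e-05, 1.23e-05, 0.00691 and 0.0362). The NR4A1 term was not called without any 1 of the 6 REH libraries (adjusted p of 0.0588 to 0.145) or without the 3 L-asparaginase libraries that stood apart (0.0966), and the EGR3 term was not called without REH treated B (0.0553) or RS411 treated A (0.0725). Nalm6 differed for EGR1 (-2.86 ± 0.59, adjusted p = 0.00386) and IER3 (-1.22 ± 0.26, adjusted p = 0.00620), with a background of 2.51%.

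SUPB15 parted the other way for 5 members, where 3.03% of genes differed. Its response exceeded the mean of the others by 4.08 ± 0.88 for EGR3, 3.57 ± 0.63 for NR4A3, 3.02 ± 0.56 for EGR1, 2.86 ± 0.55 for NR4A1 and 2.63 ± 0.71 for EGR2 (adjusted p of 0.00525, 0.000631, 0.00106, 0.00174 and 0.0302). These terms are differences from lines where the genes fell on average, not called rises in SUPB15. In the same model SUPB15's own log2 responses were 1.23, 0.65, 1.04, 0.82 and 0.86 in that order, none called (adjusted p of 0.154 to 0.460). Untreated SUPB15 had only 20 counts of EGR2 and 14 of EGR3 in all, so a fall could hardly be seen there. EGR3 in SUPB15 rested on treated library C, with 21 of the line's 30 treated counts and 99 genes near absent in the line's other libraries; without it the term was 2.73 (adjusted p = 0.227). The EGR2 term was lost without any 1 of the other 5 SUPB15 libraries or CEM untreated B (adjusted p of 0.0507 to 0.241), and without the 3 L-asparaginase libraries that stood apart (2.83, adjusted p = 0.0507). EGR1, NR4A1 and NR4A3 stayed called in each fit without 1 library. In DND41, with a background of 5.95%, EGR1 and NR4A1 lay on opposite sides: the difference from the others was 2.34 ± 0.49 for EGR1 (adjusted p = 0.00236), and that of NR4A1 was -2.54 ± 0.66 (adjusted p = 0.0155), the NR4A1 term lost without treated A or untreated C (0.0776 and 0.216). The terms of the other members in DND41 were not called. RS411 differed for NR4A1 (2.30 ± 0.54, adjusted p = 0.0248; background 1.01%), a call lost without treated B or C or untreated B or C (0.0698 to 0.114) or without those 3 libraries (0.101). No member of CEM or 697 differed from the other lines, where 1.17% and 9.11% of genes did.

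**Figure D3:**
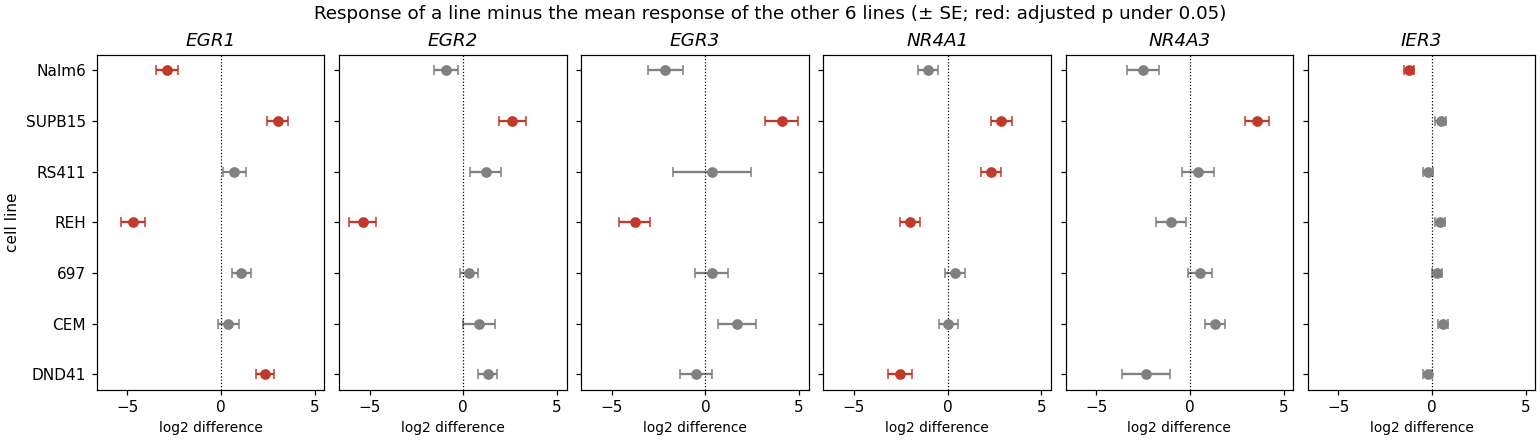
Response of each line (rows) minus the mean response of the other 6 lines for 6 members (panels), as log2 difference ± SE in the model of all 42 libraries; red points passed an adjusted p under 0.05. REH lies to the left for EGR1, EGR2 and EGR3, SUPB15 to the right for the 5 EGR and NR4A genes shown, and DND41 to the right for EGR1 but to the left for NR4A1.

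Before treatment the lines already differed in the level of all 8 members, as 86.7% of all genes did. Untreated EGR1 ran from 38 ± 28.9 CPM in DND41 through REH (17.2 ± 5.81), 697 (8.38 ± 3.22), Nalm6 (8.05 ± 4.78), CEM (2.36 ± 0.902) and RS411 (1.26 ± 0.317) to 1 ± 0.608 CPM in SUPB15, a ratio of means of 37.9. Neighbours differed at DND41 over REH, REH over 697 and Nalm6 over CEM (adjusted p of 0.0325, 0.0493 and 0.00209), whereas 697 and Nalm6, CEM and RS411, and RS411 and SUPB15 did not differ beyond their spread. The steps on either side of REH were near the threshold, and untreated DND41 A (13.9 CPM) lay within the REH range of 13.7 to 23.9 CPM. Without 1 library, 15 to 18 pairs of lines differed in EGR1. Among the lines with high EGR1, DND41 and 697 had no called change in it. The missing call in 697 does not show that EGR1 was unchanged there (log2 difference -0.63 ± 0.42).

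The NR4A genes followed another order. Untreated NR4A1 was 96.8 ± 19.2 CPM in Nalm6 and 49.1 ± 9.11 CPM in REH, then 12 ± 12.2 in 697, 8.95 ± 2.38 in CEM, 4.77 ± 0.683 in RS411, 4.1 ± 3.67 in DND41 and 2.51 ± 0.913 in SUPB15. The only step between neighbours that passed was REH over 697 (log2 difference 2.04 ± 0.48, adjusted p = 0.000558). NR4A3 was highest in Nalm6 at 15.8 ± 3.35 CPM, followed by CEM (4.43 ± 2.09), REH (2.08 ± 0.606) and 697 (0.775 ± 0.445), and these 4 differed from each other in turn (adjusted p of 0.000569, 0.0448 and 0.0109). RS411, SUPB15 and DND41 lay below, between 0.229 and 0.373 CPM on average, without a difference between neighbours. DND41 thus headed the order of EGR1 and closed that of NR4A3, whose highest and lowest means were 69.0-fold apart. NR4A2 was highest in DND41 at 1.95 ± 0.92 CPM, above Nalm6 at 1.01 ± 0.191 CPM (adjusted p = 0.0255), and no other neighbouring pair differed, down to 0.419 ± 0.222 CPM in REH.

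EGR2 was high in 697 (5.04 ± 2.98 CPM), REH (4.8 ± 1.91) and DND41 (3.62 ± 2.3), which did not differ from neighbour to neighbour. It dropped at Nalm6 (1.14 ± 0.567, adjusted p = 0.00270 against DND41) and again at SUPB15 (adjusted p = 6.87e-05 against Nalm6), with SUPB15, RS411 and CEM at 0.155, 0.152 and 0.130 CPM. EGR3 stood out in REH, at 7.59 ± 2.33 CPM, above Nalm6 at 1.34 ± 0.764 CPM (adjusted p = 0.000291), and later neighbours did not differ. IER2 ran from 244 ± 19.6 CPM in REH to 52.2 ± 22.4 CPM in RS411 without a called step between neighbours. In IER2, 8 of the 21 pairs of lines differed, and 15 without the 5 first untreated libraries, each the lowest in IER2 of its line's untreated ones. IER3 fell into 3 tiers, Nalm6 and DND41 (14.5 ± 1.73 and 12.9 ± 5.43 CPM), then 697, REH and CEM (5.88, 5.72 and 4.70 CPM), then RS411 and SUPB15 (2.17 and 2.10 CPM), with called steps between the tiers (adjusted p of 0.000134 and 0.000305). Pairs of lines that differed, out of 21, numbered 18 for EGR1, 15 for EGR2 and EGR3, 14 for NR4A1, 10 for NR4A2 and 16 for NR4A3 and IER3, where 35.2% to 55.8% of genes differed per pair. With NR4A2 the count was 6 without untreated REH B or untreated DND41 C.

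In some lines the untreated libraries ranked alike for many members. The same ranking over all genes was not computed, so it is not read as a trait of the members. In DND41, untreated library A was the lowest for 7 of 8 members with counts and untreated library C the highest for 8 of 8, with a range of 5.04-fold for EGR1, 9.18-fold for EGR3 and 9.66-fold for NR4A1. In Nalm6, untreated library A was the lowest for 6 of 9 members. In 697, untreated NR4A1 and IER2 ranged 10.4-fold and 12.8-fold. Untreated REH ranged 1.42-fold for NR4A1 and 1.17-fold for IER2, but 2.22-fold for EGR2 and 3.49-fold for NR4A2. Its library C was the highest for 6 of 8 members. In RS411 and 697 the first untreated library was the lowest for only 2 and 3 of 8 members.

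Related genes were described by lists chosen with earlier results of these data known. Among 32 other immediate early genes, 30 were tested on average over the lines, of which 9 fell and 5 rose, against 19.6% of all genes lower and 17.8% higher; their median log2 fold change was -0.15, and that of all genes -0.02. Together 14 were called, but 8 without Nalm6 and 9 without REH. The 4 with the largest called mean change were FOSB, an AP-1 subunit (-1.90 ± 0.22), ATF3, a stress-induced CREB family factor (1.21 ± 0.12), JUN, an AP-1 subunit (0.91 ± 0.16), and KLF6, a Kruppel-like factor (0.74 ± 0.09). FOSB fell in 4 lines and ATF3 rose in 6, so that immediate early genes moved in both directions. Of 16 genes listed as feedback regulators or transcriptional outputs of ERK signalling, 15 were tested, 4 fell and 2 rose (26.7% and 13.3%), with a median of 0.02. PHLDA1 rose (1.39 ± 0.13), in 6 lines, and DUSP10 rose (0.37 ± 0.12), while SPRY2 and DUSP1, which restrain ERK, fell by 0.31 ± 0.08 and 0.31 ± 0.09. By line, DUSP10 was called higher in 2 and lower in 1, DUSP1 lower in 3 and higher in 1, and SPRY2 lower in 2.

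Of 15 SRF, ternary complex and CREB factors, which act upstream of the members, 5 rose and 3 fell (33.3% and 20%, against 17.8% and 19.6% of all genes), with a median of 0.11; CREM (0.67 ± 0.06), CRTC2 (0.48 ± 0.06) and ELK3 (0.46 ± 0.09) rose and SRF fell by 0.46 ± 0.08, in 4 lines. ELK3 was called higher in 1 line and lower in 1. Of the 5 EGR and NR4A partners, 4 were tested. The NR4A partner RXRB rose (0.71 ± 0.12), while RXRA fell by 0.33 ± 0.13 and the EGR corepressor NAB2, itself an EGR target, fell by 0.62 ± 0.14. NAB2 differed between lines (adjusted p = 0.000240). It averaged 11.7 ± 1.03 CPM with L-asparaginase and 81.1 ± 34.8 CPM untreated in REH (-2.76 ± 0.29, adjusted p = 0.000160), whereas it rose in CEM, with 18.4 ± 0.279 CPM treated and 10.1 ± 1.92 CPM untreated (0.87 ± 0.12, adjusted p = 0.000268).

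In REH, 16 of 27 tested other immediate early genes fell and 2 rose, with a median log2 fold change of -0.80, against 13.3% and 13.2% of all genes and an overall median of -0.01. FOS and DUSP6, named after their values were seen, illustrate the spread between lines. FOS fell in REH, to 3.09 ± 0.128 CPM with L-asparaginase, against 22.4 ± 10.8 CPM untreated (-2.82 ± 0.29, adjusted p = 0.000136), and in Nalm6 (-1.38 ± 0.31, adjusted p = 0.0115). DUSP6, a phosphatase that inactivates ERK, fell in RS411 and REH (-1.56 ± 0.24 and -0.72 ± 0.17, adjusted p of 0.00691 and 0.00969) and rose in 697, DND41 and CEM (1.66 ± 0.15, 1.04 ± 0.17 and 0.31 ± 0.10, adjusted p of 0.0100, 0.00254 and 0.0307). In DND41 JUN also rose, to 280 ± 41.5 CPM with L-asparaginase, against 27.9 ± 16.2 CPM untreated (3.36 ± 0.34, adjusted p = 0.000541), beside the decrease of NR4A1. In SUPB15, 6 of 28 other immediate early genes rose and 4 fell, against 12.9% of all genes higher and 13.2% lower.

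**Figure D4:**
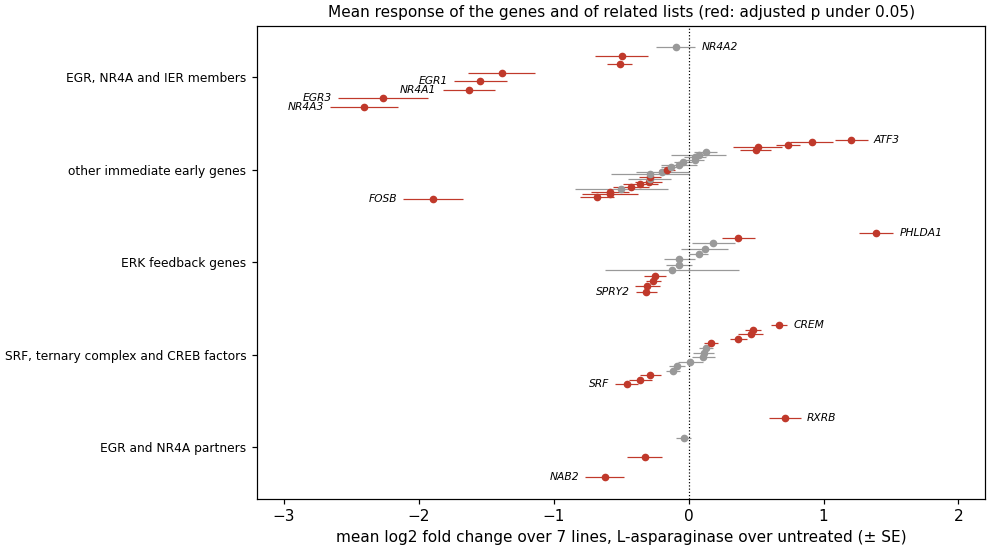
Mean log2 fold change over the 7 lines, L-asparaginase over untreated, ± SE, for 8 members and 4 related lists (rows, each point a gene; red passed an adjusted p under 0.05); genes with too few counts for a stable SE are left out. NR4A3 and EGR3 lie at -2.41 and -2.27, beyond FOSB at -1.90, while ATF3, PHLDA1, CREM and RXRB lie above 0.

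Likeness over the 14 group means of log2 CPM was computed as Pearson's r, as a description only, since the points share lines and a member's own response shapes them. EGR1 was most like EGR2 among the members (r = 0.893), NR4A1 like NR4A3 (0.778), and IER2 like IER3 (0.744), while EGR1 and NR4A1 were at -0.12. Among 12188 genes whose log2 CPM averaged 1 or more, ZNF136, ZNF587 and CSNK1D were nearest to EGR1 (0.835, 0.817 and 0.817), LRRC8A, CTB-31O20.2 and KLF16 to NR4A1 (0.840, 0.837 and 0.832), and AAMDC, CSRNP1 and ADGRA2 to IER2 (0.852, 0.834 and 0.831).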

How the data were processed

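RNA-seq libraries of 7 ALL cell lines, 3 with L-asparaginase and 3 untreated per line, were compared. The authors deposited whole-number read counts per gene symbol, 1 table per line, not normalized; per the submitters' processing notes the build was hg19. No aligner, counting tool, annotation or strand setting is given in the sources used here; overlapping and antisense genes cannot be told apart. Per the labels' protocols RNA came from a column kit and standard Illumina libraries. Columns were matched to groups by line and treatment; the letters A to C of 6 tables are in no label, and 697 has numbers 1 to 3. No column was left unused. Up to 2 repeated, date-like names per table were dropped (at most 0.00063% of counts).

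Each line was fitted with edgeR 4.0.16 (R 4.3.3) by the quasi-likelihood test with TMM factors, filterByExpr at a minimum count of 10 and Benjamini-Hochberg adjustment over the 14951 to 16345 genes tested, called at 0.05. A model with a coefficient per group over all 42 libraries (20983 genes, 28 residual degrees of freedom) gave the mean response, the difference between lines and the untreated levels. When 1 library was left out of that model, genes and trended dispersion of all libraries were kept. DESeq2 1.42.0 was an alternative, as were its size factors, no filter, a shared spread and a replicate block. Scaling left the median log2 fold change of a line between -0.03 and -0.003. No pair of libraries in a group was alike within sampling noise (chi-square per degree of freedom at least 15.0). Intervals cover counting error only, and PCR copies are not independent molecules.

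Same letters or numbers were taken to pair libraries where every pair's correlation of deviations from the group means was over 0.1: SUPB15 (lowest 0.19), RS411 (0.11), REH (0.43), CEM (0.23) and DND41 (0.37), not Nalm6 (0.06) or 697 (-0.08). The highest correlation between unlike letters was 0.14 in SUPB15, 0.27 in RS411, -0.06 in REH, -0.0005 in CEM and 0.32 in DND41. In RS411 it exceeded the lowest of a same letter, so the pairing there is not clearly shown. On simulated counts the test found 80% to 97% of 4-fold changes per line, and 14% (697) to 73% of 2-fold ones. False calls made up 1.23% (REH) to 7.10% (Nalm6) of the calls. These counts were drawn with a trended spread and 1 mean per line. They do not cover genes with a wider spread of their own or single libraries that stand apart.

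The members and lists were chosen with earlier results of these data known. All 9 members are reported; of each related list, up to 4 genes called on average with the largest mean change are named, and the 3 nearest genes of EGR1, NR4A1 and IER2. Promoters were read with Python 3.11.15.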

Additional observations from a re-analysis of the deposited data

Results flagged for a closer look

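The size of the response to L-asparaginase differed between the 7 lines for 6 members, each by the edgeR test of the line-by-treatment terms: EGR1 (adjusted p = 3.14e-07), EGR2 (2.41e-05), EGR3 (0.000519), NR4A1 (4.02e-05), NR4A3 (7.69e-05) and IER3 (0.00998). All 6 stayed called in each of the 42 fits that left out 1 library, with adjusted p-values up to 0.00525 for EGR3 and 0.0438 for IER3. Groups of 3 libraries are too small for the test of a single far value.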

How the results depend on the processing

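The number of members called stayed within 1.5 times of the reported one under each alternative run in Nalm6 (6 to 8 of 9 without 1 library) and REH (6), on average over the lines (7; 5 to 7, with 6 to 7 without 1 library) and for the difference between lines (6; 6 to 7). Elsewhere it moved. SUPB15, at 0, had 2 without the filter, 2 with DESeq2 and 3 with the replicate block (0 to 2 without 1 library). RS411, at 1, had 0 with the spread shared over all 42 libraries (0 to 1). The 697 count of 0 was 1 with DESeq2 and 1 with the shared spread (0 to 2), CEM's 4 was 1 with the shared spread (1 to 4), and DND41's 1 was 6 without the filter, 4 with the block and 4 with the shared spread (1 to 3). The causes were not tested. The block changed no other line's count by over 1.5 times; in Nalm6 and 697 the libraries share only a letter or number.

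The sign turned for differences that were not called. Without 1 library, the log2 difference of NR4A2 in REH ran from -0.391 to 0.394, in CEM from -0.275 to 0.0622, in Nalm6 from -0.176 to 0.105, in RS411 from -0.167 to 0.184 and in SUPB15 from -0.0507 to 0.426. That of IER3 ran from -0.255 to 0.0480 in REH and -0.105 to 0.0397 in CEM, that of IER2 from -0.0809 to 1.10 in 697, and that of EGR2 from -0.591 to 0.331 in DND41. NR4A2 in REH was 0.0476 with DESeq2 and 0.117 with the block, and IER3 in CEM was 0.00052 without the filter. Depth limits EGR2, EGR3, EGR4 and NR4A3, each with at least 1 group of under 10 counts in all, EGR2 with L-asparaginase in REH among them. The refits of each line against the others and of the pairs of lines were added after the data were seen.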
